A study of Mus musculus with 6 samples.

Results

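The 10 genes Hapln1, Papss2, Vcan, Has2, Sox9, Twist1, Postn, Prrx1, Lum and Dcn build or specify the matrix-rich mesenchyme of the embryonic heart cushions. They were chosen by name, and every probe set annotated to one of them was taken, which gave 32 of the 45037 probe sets on the array. Each gene was represented by its brightest probe set, that of highest mean level over the arrays, so that the 10 genes stood among 18193 genes. Per the labels, total RNA of single hearts at E12.5 (embryonic days) was hybridised to 430 2.0 GeneChips, 1 per heart. There were 3 arrays from Sp3 knockout fetuses and 3 from wildtype fetuses, each set lettered a to c. Sp3, of the Sp family of zinc finger proteins, regulates transcription from GC-rich promoter elements. The knockout allele and the strain are not given in the sources used here. Nothing in the labels beyond the single hearts says how the fetuses were related, so the p-values reflect only how much these 6 samples vary. Having 3 arrays per genotype limits the precision throughout.

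Endocardial cushions are swellings of the inner heart wall from which valves and septa form. Endocardial cells leave their sheet, become mesenchyme and move into a gel of hyaluronan, a sugar polymer made at the cell membrane, in which Vcan, a large chondroitin sulfate proteoglycan, is held by the link protein Hapln1. Mouse embryos without Has2 or without Vcan form no cushions. Later the gel is remodelled into a fibrous matrix in which Postn and the small leucine-rich proteoglycans Lum and Dcn bind collagen. Mesenchyme outside the heart also expresses these genes.

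The labelled tissue was checked against marker genes. Levels are given as percentiles among all probe sets. The 8 liver genes measured, of 10, lay between 92.9 and 99.95, with Afp and Alb highest. Of the 7 erythroid genes measured, of 10, 6 lay above the median, led by Hbb-y, and Hba-a1 lay at 26.0. Of the 12 heart muscle genes 6 lay above the median, with Actc1 at 86.9, Tnni1 at 80.5 and Myl7 at 78.6, and the lowest was Myh6 at 15.9. Median percentiles were 99.5 for liver, 98.6 for erythroid and 44.8 for heart muscle genes. Transcripts of heart muscle were thus read, mostly at lower levels than those of liver and red cells, in RNA labelled as heart. Those of liver and red cells were mostly among the highest readings. Which tissue the readings of the 10 cushion genes came from was not tested. In such bulk samples fewer cells of a type and less RNA per cell cannot be told apart. Of the 10 general mesenchyme genes 7 lay above the median, and the list's median percentile was 87.4. Highest was Col3a1, at a log2 intensity of 11.50 ± 0.13 (SD, n = 3) on the knockout arrays against 11.35 ± 0.08 (SD, n = 3) on those of wildtype. Next was Vim, at 10.68 ± 0.26 and 10.42 ± 0.27. The lowest of that list were Mfap5 at percentile 38.8, Dpt at 18.7 and Thy1 at 8.95. The hepatic stellate and liver mesothelium markers of highest level were Reln, at percentile 97.6, and Podxl, at 92.3. Of the 13 genes of that list 11 lay above the median, and the lowest were Lrat at 37.85 and Msln at 15.2. The epicardial markers of highest level were Tcf21 and Upk3b, of which Upk3b is also on the liver mesothelium list, and those of cartilage, Col11a1 and Col9a1. Median percentiles were 77.9 for hepatic stellate and liver mesothelium, 70.2 for epicardial and 29.3 for cartilage genes. The lowest cartilage marker was Matn1, at percentile 6.5 of probe sets. In the 8 tissue lists 0 markers passed the test given below. The median log2 difference, knockout minus wildtype, was -0.13 over liver, -0.28 over erythroid, 1.16 over heart muscle, 0.26 over 13 hepatic stellate and liver mesothelium, 0.68 over 12 cartilage, 0.15 over 8 endothelial and endocardial, 0.19 over 10 general mesenchyme and 0.39 over 8 epicardial genes. Without knockout c, an array described next, the erythroid median was -0.05, the endothelial 0.03 and the heart muscle 0.97. Without wildtype b the heart muscle median was 0.65, the cartilage 0.0044, the endothelial 0.05, the general mesenchyme 0.05 and the epicardial 0.25. 

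The array of knockout c stood apart on markers of sex. Xist, which is made from the silenced X chromosome of female cells, was at 10.55 in knockout c, 10.63 in wildtype a and between 5.21 and 5.80 on the other 4 arrays. The Y-linked gene Eif2s3y was at 1.34 in wildtype a, at 6.64 in knockout c and between 8.60 and 8.88 on the other 4. Kdm5d and Uty, also Y-linked, were at 5.25 and 5.24 in knockout c and at 2.25 and 3.08 in wildtype a. Knockout c thus read female and male transcripts together, which goes against its label as RNA of a single heart, and the differences of the cushion genes in which it is the highest or lowest array are also given without it at their brightest probe sets. On the knockout arrays Sp3 itself, read by 1 probe set, lay below all wildtype readings, with a log2 difference of -1.27. Its limma adjusted p was 0.00254. Without a level-dependent variance and robust estimation Sp3 had a limma adjusted p of 0.279. Where its probes lie relative to the deleted part is not known here.

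None of the 32 probe sets of the cushion genes passed the test between knockout and wildtype. The test was limma with a variance that follows the level and with robust estimation, two-sided. Its p-values were adjusted over all probe sets by Benjamini-Hochberg, with a threshold of 0.05, and it called 14 probe sets of all, 0.0311%. An unadjusted p under 0.05 was found in 2 of the 32, both of Papss2, where the share over all probe sets was 7.16%. Without the level-dependent variance and robust estimation 3 of the 32 had an unadjusted limma p under 0.05, where 2699 of all 45037 probe sets did. In that fit 0 passed. The added one was the brightest of Hapln1, with a limma p of 0.0271 in that fit. The level was higher in knockout at 22 probe sets and lower at 10. The 3 arrays of one group all lay outside the 3 of the other at 2 of the 32, 1 of Hapln1 with knockout higher and 1 of Papss2 with knockout lower. Over all probe sets that held for 13.0%, of which 6.15% had knockout higher and 6.89% knockout lower. Of the 32 probe sets 8 had a mean level above the median of all, and the dimmer ones vary more between arrays. The median residual SD over all probe sets was 0.17 in the ninth of 10 classes by level, where the brightest Vcan, Postn and Dcn probe sets lay, and 0.94 in the fourth, where both Has2 and several Prrx1 probe sets lay.

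**Figure D1:**
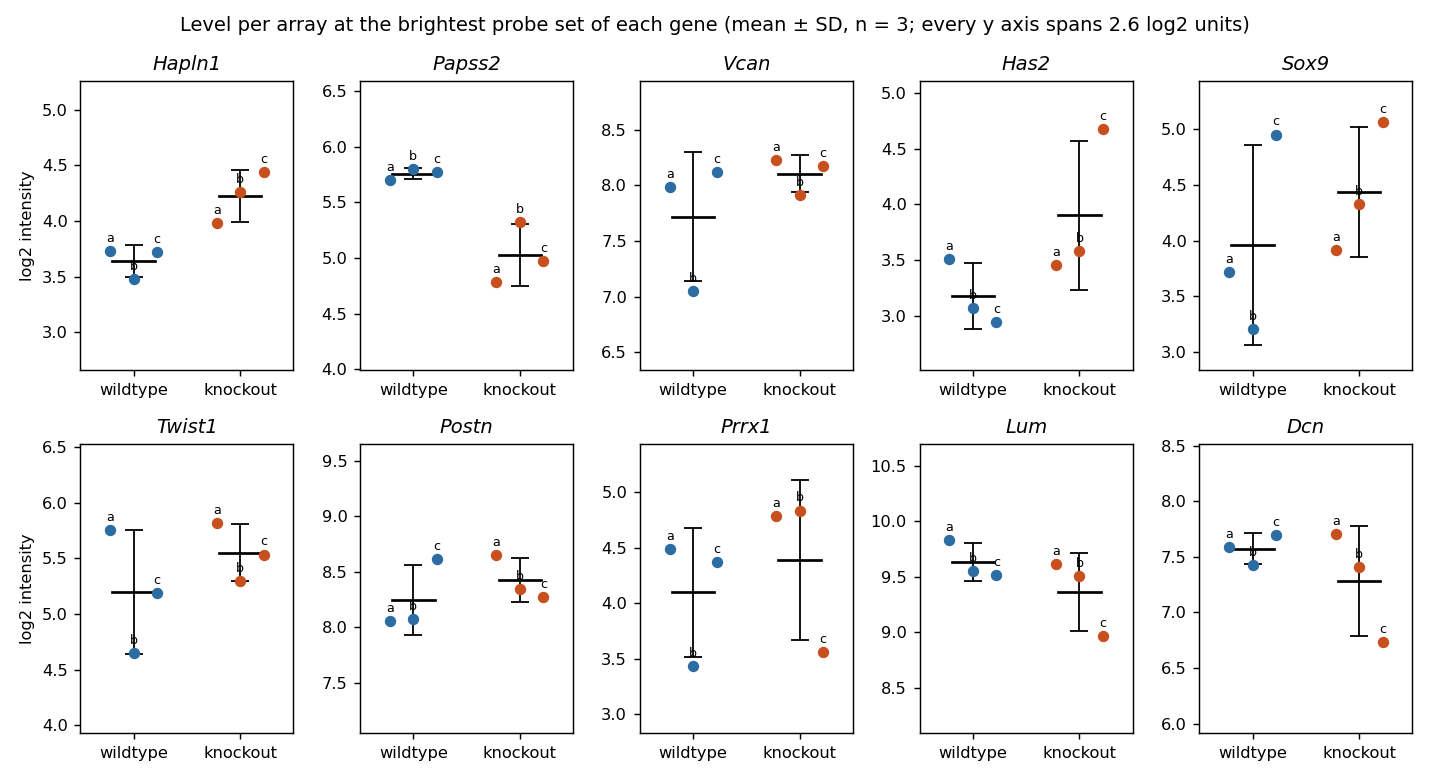
Log2 intensity at the brightest probe set of each of the 10 genes in 3 wildtype (blue) and 3 knockout (orange) arrays, lettered a to c, with the mean and SD as bars. Each axis spans the same number of log2 units, and the groups are apart only for Hapln1 and Papss2.

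The gel-forming genes come first. Has2 makes hyaluronan. At its brightest probe set the log2 intensity was 3.45, 3.58 and 4.67 on the knockout arrays, always listed from a to c, and 3.51, 3.07 and 2.94 on the wildtype arrays. Knockout c stood above the other 5 arrays, which overlapped. The log2 difference, knockout minus wildtype, was 0.73, with a 95% interval from -0.59 to 2.04, and 0.34 without knockout c. The other Has2 probe set differed by 1.59, but wildtype b read 0.05 there against 2.74 to 4.58 in the other 5 arrays. Without wildtype b that difference was 0.41, and without wildtype c 2.62.

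Vcan was read by 8 probe sets, of which 3 lay above the median level. The brightest gave 8.23, 7.92 and 8.18 in knockout and 7.98, 7.05 and 8.12 in wildtype. Wildtype b lay below the other 5 arrays, and the other 2 wildtype arrays lay within the knockout range. The difference was 0.39 ± 0.25 (SE), with an interval from -0.16 to 0.93, and it was 0.06 without wildtype b and 0.59 without wildtype c. The next brightest Vcan probe sets showed the same low array, at 5.62 and 4.09 in wildtype b, and differed by 0.28 and 0.68. Without wildtype b they differed by -0.15 and 0.24, and without wildtype c by 0.68 and 1.14. The 5 dim Vcan probe sets differed by -1.37 to 0.63, and 3 of them lay in the lowest of the 10 classes by level.

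Hapln1 encodes the link protein that clamps Vcan onto hyaluronan. Its brightest probe set read 3.98, 4.26 and 4.44 in knockout and 3.73, 3.48 and 3.73 in wildtype, so the lowest knockout array lay above the highest wildtype array. The difference was 0.59 with an interval from -0.42 to 1.59, since probe sets at this level vary by 0.56 (median residual SD). The limma adjusted p was 0.795. Without knockout c the difference was 0.48. Hapln1 had 4 probe sets, all below the median level, and they did not go one way. The next brightest differed by 1.03, knockout higher, with overlapping arrays. The third, at percentile 25.2 of probe sets, read 4.02, 0.90 and -0.93 in knockout and 4.33, 3.26 and 3.97 in wildtype. The difference was -2.53, which was -1.39 without knockout c and -3.87 without knockout a. Knockout a lay within the wildtype range there, and knockout b and c were near the bottom of the scale. The dimmest, at percentile 14.5, differed by 2.22, knockout higher, with overlapping arrays. Wildtype a and c read -0.94 and 0.23 at the dimmest, also near the bottom of the scale. With 1 array left out its difference ran from 1.3978 to 3.2754.

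Papss2 makes the activated sulfate that is added to chondroitin and heparan chains, and it was the gene of the 10 with the smallest p-values. Its brightest probe set read 4.78, 5.33 and 4.97 in knockout and 5.70, 5.80 and 5.77 in wildtype. All 3 wildtype arrays were close together and all 3 knockout arrays lay below them. The difference was -0.73 with an interval from -1.30 to -0.17, a limma p of 0.0153 before adjustment and 0.634 after. Its adjusted p lay between 0.288 and 0.941 over 14 alternative settings. The second probe set read 3.60, 4.04 and 3.56 in knockout and 5.45, 5.19 and 4.02 in wildtype. Wildtype c was level with knockout b, so the groups overlapped, and the difference was -1.15 with an interval from -2.16 to -0.15. The 2 remaining Papss2 probe sets differed by -0.21 and 0.22, with intervals that span 0. With 16 intensity units added before log2, which shrinks differences between dim readings, the brightest Papss2 probe set still differed by -0.53. With no units added and knockout c left out it differed by -0.70.

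**Figure D2:**
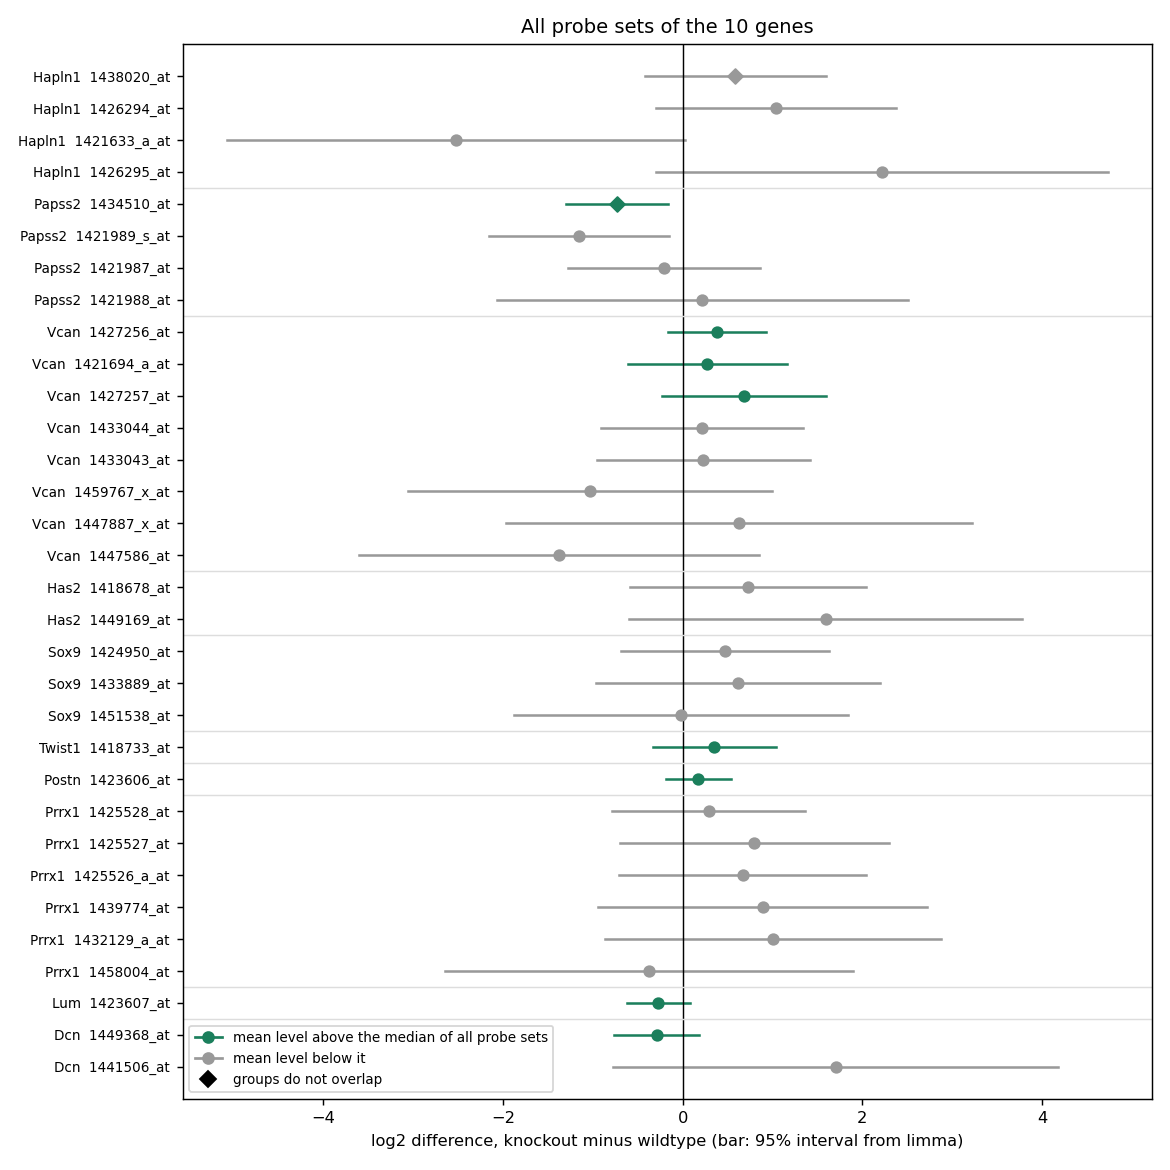
Log2 difference, knockout minus wildtype, with its 95% interval from limma (bars) for all 32 probe sets, grouped by gene. Green marks those above the median level of all probe sets, and diamonds the 2 whose groups do not overlap. Only the 2 upper Papss2 bars leave out 0.

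Since Sp3 acts through GC-rich promoter elements, the bases upstream of the annotated starts of the genes that were apart between groups are shown with that of Vcan, the genomic neighbour of Hapln1. In GRCm38.p6 no protein-coding gene lies between Hapln1 and Vcan on chromosome 13, and the pair is transcribed from opposite strands. RefSeq windows were found for 6 of the 10 genes, 8 windows in all, and cut to 250 bases before the start. Each was searched on both strands for GGGCGG, the core of the GC box, and for GGGTGTGG, a GT box. Capitals mark matches of the GC box, read on either strand. The windows are chr19:32595465-32595714 on the plus strand for Papss2, chr13:89540386-89540635 on the plus strand for Hapln1 and chr13:89742513-89742762 on the minus strand for Vcan.
Papss2: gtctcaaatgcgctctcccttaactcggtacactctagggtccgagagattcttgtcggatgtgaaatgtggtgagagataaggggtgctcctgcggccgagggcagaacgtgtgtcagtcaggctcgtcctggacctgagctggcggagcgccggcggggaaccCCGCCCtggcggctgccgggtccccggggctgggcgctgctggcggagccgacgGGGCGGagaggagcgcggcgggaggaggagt
Hapln1: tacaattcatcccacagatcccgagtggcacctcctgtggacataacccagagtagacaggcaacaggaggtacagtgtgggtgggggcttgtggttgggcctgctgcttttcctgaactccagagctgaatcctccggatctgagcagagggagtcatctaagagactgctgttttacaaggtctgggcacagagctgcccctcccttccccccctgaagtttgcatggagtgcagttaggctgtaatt
Vcan: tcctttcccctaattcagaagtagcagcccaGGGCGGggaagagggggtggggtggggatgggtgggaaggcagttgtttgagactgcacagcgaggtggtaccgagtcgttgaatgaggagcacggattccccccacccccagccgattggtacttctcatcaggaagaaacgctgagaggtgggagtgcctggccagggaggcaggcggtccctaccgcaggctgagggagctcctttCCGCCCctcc

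The Papss2 window held 2 GC box matches, at 85 to 80 and 31 to 26 bases before the start. The Vcan window also held 2, and the Hapln1 window 0. A further match lay in the Twist1 window, at 62 to 57 bases, while the Prrx1 window and both Postn windows held none. So did a second, downstream Papss2 window. In all 3 of the 8 windows had a match, beside 32.7% of 32851 windows of this length, and 16.7% of all windows held 2 or more. The GT box was in 0 of the 8 windows and in 3.2% of all. The Papss2 window was 67.6% G and C, the Vcan window 62.4% and the Hapln1 window 54.4%, where the median of all was 52.4%. A match describes letters in a window and is not a binding site.

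Regulators of the mesenchyme were next. Sox9 is a transcription factor that cushion mesenchyme needs to grow and that drives cartilage matrix genes. Its brightest probe set read 3.92, 4.33 and 5.07 in knockout and 3.72, 3.21 and 4.95 in wildtype. Both groups ran over more than a log2 unit, with the array lettered c highest in each, and the difference was 0.48 with an interval from -0.68 to 1.63. It was 0.16 without knockout c, 0.10 without wildtype b, 0.74 without knockout a and 0.97 without wildtype c. The other Sox9 probe sets differed by 0.62 and -0.02.

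Twist1 is a bHLH factor that marks early cushion mesenchyme and falls as valves mature. Its single probe set read 5.81, 5.30 and 5.53 in knockout and 5.76, 4.65 and 5.19 in wildtype. The difference was 0.35, with an interval from -0.33 to 1.04, and 0.08 without wildtype b, the lowest array, 0.22 without knockout a and 0.63 without wildtype a. Prrx1, a homeobox factor of loose mesenchyme, read 4.78, 4.83 and 3.56 in knockout and 4.49, 3.43 and 4.37 in wildtype. Knockout c and wildtype b were both low, and the groups differed by 0.29, by 0.71 with knockout c left out and by -0.04 with wildtype b left out. It was 0.10 and 0.07 without knockout a or b and 0.49 without wildtype a. Of its 6 probe sets 5 were higher in knockout, with differences from -0.37 to 1.01 and intervals that all span 0.

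Genes of the fibrous matrix follow. Postn, a matricellular protein of maturing valves, read 8.65, 8.35 and 8.27 in knockout and 8.05, 8.07 and 8.61 in wildtype. The groups overlapped through wildtype c, and the difference was 0.18 with an interval from -0.19 to 0.54. With 1 array left out it ran from 0.06, without knockout a, to 0.36, without wildtype c, and was 0.08 and 0.09 without wildtype a or b.

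Lum, lumican, read 9.62, 9.51 and 8.96 in knockout and 9.83, 9.55 and 9.52 in wildtype. Dcn, decorin, read 7.70, 7.41 and 6.73 in knockout and 7.59, 7.42 and 7.70 in wildtype. In both genes knockout c was the lowest of the 6 arrays and the other 5 overlapped. The differences were -0.27 for Lum, with an interval from -0.61 to 0.08, and -0.29 for Dcn, with an interval from -0.76 to 0.18. Without knockout c they were -0.07 and -0.02. Lum was at -0.17 without wildtype a, and Dcn at -0.50 without knockout a. Lum and Dcn are direct neighbours on chromosome 10 in GRCm38.p6, with 0 protein-coding genes between them. The second Dcn probe set, at percentile 24.0 of probe sets, differed by 1.70, against the direction of the brighter one, with an interval from -0.77 to 4.18, and by 0.51 without wildtype b. Knockout c was also the lowest array on the erythroid list, at -0.51 from the list's mean over arrays, and the part of that in the Lum and Dcn values was not tested.

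**Figure D3:**
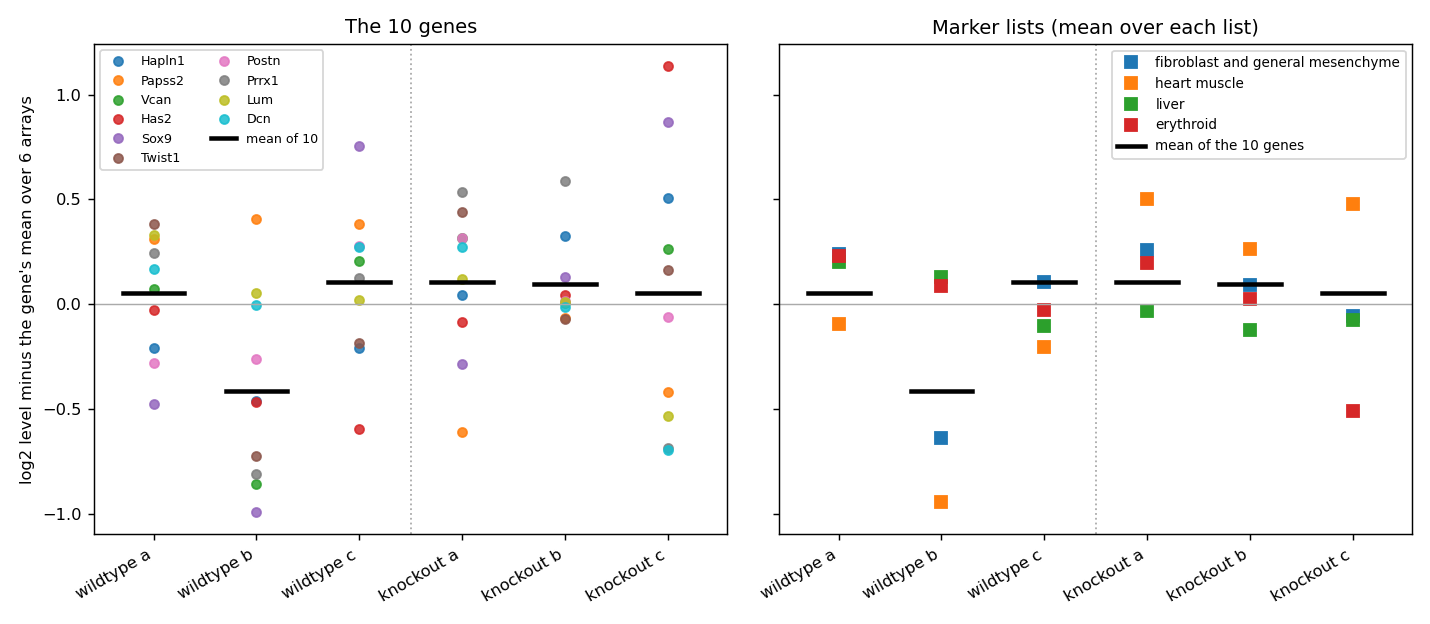
Log2 level minus each gene's own mean over the 6 arrays, for the 10 genes (left, points) and averaged over 4 marker lists (right, squares). Black bars are the mean of the 10 genes, which is -0.41 in wildtype b and between 0.05 and 0.11 in the other arrays.

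Averaged over the 10 genes after centring each on its own mean, the level was 0.11, 0.10 and 0.05 on the knockout arrays and 0.05, -0.41 and 0.10 on the wildtype arrays. Wildtype b alone stood apart. It was the lowest array for 5 of the 10 genes, which were Vcan, Twist1, Sox9, Prrx1 and Hapln1, and the lowest for 23.0% of all genes. Papss2 went the other way and was highest in wildtype b. The median log2 difference over the 10 genes was 0.32, with 7 higher in knockout and 3 lower, against a median of -0.02 over all genes and 47.5% of them higher. Without wildtype b the median was 0.07 for the 10 genes and -0.05 for all genes, and without knockout c it was 0.30 and -0.02. Counting only the 6 genes whose brightest probe set lay above the median level, it was -0.05.

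Markers of general mesenchyme moved with the same array. The 10 genes of that list, none of them among the cushion genes, were at -0.64 in wildtype b and between -0.06 and 0.26 in the other 5 arrays. Their summed intensity ran from 6594.8 to 7400.3 in knockout and from 5313.5 to 6678.4 in wildtype. The heart muscle list was at -0.94 in wildtype b, with a summed intensity of 1011.4 to 1058.1 in knockout and 371.5 to 959.5 in wildtype. The liver list, at 0.13 in wildtype b, was not low there. The part of these other tissues in the level of the cushion genes was not tested.

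By Pearson correlation with the mean of the 10 centred genes over the 6 arrays, the most alike among other genes above the median level were Limk2 at 0.998, Tmc7 and Alg6 at 0.991, Mmut at 0.987 and Ccn4 at 0.986. In each of them wildtype b was the lowest array, which follows from choosing them by correlation with a mean that was low there. The points of each correlation are the same 6 arrays, which share their labelling and RNA composition across genes. Between the 10 genes themselves 45 pairs were compared, of which 3 had a correlation above 0.8. These were Lum with Dcn at 0.889, Vcan with Twist1 at 0.839 and Hapln1 with Has2 at 0.836. Papss2 ran against Hapln1 at -0.744, and Has2 against Dcn at -0.88.

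The wider pathway was read through 8 lists with 218 genes, other than the 10, of which 208 were measured. Of these 0 passed, and 17 had an unadjusted limma p under 0.05 beside 8.71% of all genes. In the fit without the level-dependent variance and robust estimation 7 had one, where 2699 of all 45037 probe sets did. No list held a gene with a limma adjusted p under 0.541 in the reported fit. The 40 cushion regulators had 31 genes higher in knockout and 9 lower, with a median log2 difference of 0.18. The 3 of smallest p were Bmp2, the signal from muscle that starts cushion formation, at 0.59, Foxc2, a forkhead factor of outflow mesenchyme, at 1.14, and Tgfb2, a growth factor of the cushions, at 0.60. The groups did not overlap in any of these 3, nor in 2 others of the 40, where 15.1% of all genes had groups apart. Foxc2 read 4.98, 3.30 and 4.68 in wildtype. Tgfb2 read 7.28, 7.24 and 7.46 in knockout and 7.14, 6.19 and 6.85 in wildtype, so wildtype b was again lowest. Without wildtype b Foxc2 was at 0.63, Tgfb2 at 0.33 and the list's median at 0.06.

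Hyaluronan genes were 23 of 24 measured, 9 higher and 14 lower, with a median of -0.06. Lyve1, a hyaluronan receptor of sinusoidal and lymphatic endothelium, differed by -0.62, Hmmr, a hyaluronan-binding protein of dividing cells, by -0.28, and Ugp2, which makes the sugar nucleotide upstream of hyaluronan, by -0.25. Lyve1 read 7.82, 8.02 and 7.23 in knockout and 8.50, 8.43 and 7.99 in wildtype, overlapping only through wildtype c. Its difference was -0.38 without knockout c, the lowest array. Enzymes of sulfation and chain synthesis, 40 of 42 measured, had 22 higher and 18 lower and a median of 0.03, which was -0.02 after quantile normalization and -0.05 after median centring. Ext2, a heparan sulfate polymerase, was at -0.45, Sulf2, which removes sulfate from heparan sulfate outside the cell, at 0.34, and Chst11, a chondroitin sulfotransferase, at 0.36. Ext2 was at -0.70 without knockout b and Chst11 at 0.23 without wildtype a.

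The 12 further small leucine-rich proteoglycans had 6 higher and 6 lower and a median of 0.0055, which was -0.14 after quantile normalization and -0.07 after median centring. Bgn, biglycan, the close relative of Dcn, was at 0.38, Podn at 0.44 and Optc, which was dim, at -1.37. With 1 array left out Bgn ran from 0.23 (wildtype c) to 0.64 (wildtype a) and Optc from -2.23 (knockout c) to -0.36 (knockout b). Of 23 other proteoglycan core proteins 9 were higher and 14 lower, with Bcan at -1.10 and Ncan at 0.96, both proteoglycans best known from brain and dim here, and Sdc3, a syndecan, at -0.26. Bcan was at -0.65 without knockout b and Ncan at 0.59 without wildtype a.

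Matricellular and elastic fibre proteins, 23 of 27 measured, had 22 higher and 1 lower and a median of 0.20, which was 0.08 without wildtype b. Fn1, fibronectin, read 10.57, 10.40 and 10.68 in knockout and 10.27, 10.20 and 10.23 in wildtype, with the groups apart and a difference of 0.32. Its limma adjusted p was 0.541. Ccn1 and Ccn2, secreted matricellular proteins, were at 0.79 and 0.58. In the list 6 genes had groups that did not overlap, all with knockout higher, where 6.02% of all genes did so. Of 16 proteoglycan-cleaving proteases and inhibitors 10 were higher and 6 lower, with a median of 0.02 that was -0.05 after median centring. Adamts9 and Adamts1, which cleave Vcan, were at 0.46 and 0.28, and Mmp2, a gelatinase, at 0.36, each with groups apart and wildtype b the lowest array. Without wildtype b Adamts9 was at 0.26, Mmp2 at 0.17 and the list's median at -0.0086. Mesenchyme transcription factors, 32 of 35 measured, had 26 higher and 6 lower and a median of 0.32. Nr2f2, an orphan receptor of venous and mesenchymal cells, was at 0.46, Hand2, a bHLH factor of heart and other mesenchyme, at 0.51 and Tcf21, a bHLH factor of epicardial mesenchyme, at 0.53. Wildtype b was the lowest array for Nr2f2, Hand2 and Tcf21, and without it they differed by 0.32, 0.34 and 0.36. The median of the mesenchyme transcription factors was 0.19 without wildtype b and 0.13 without knockout c.

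**Figure D4:**
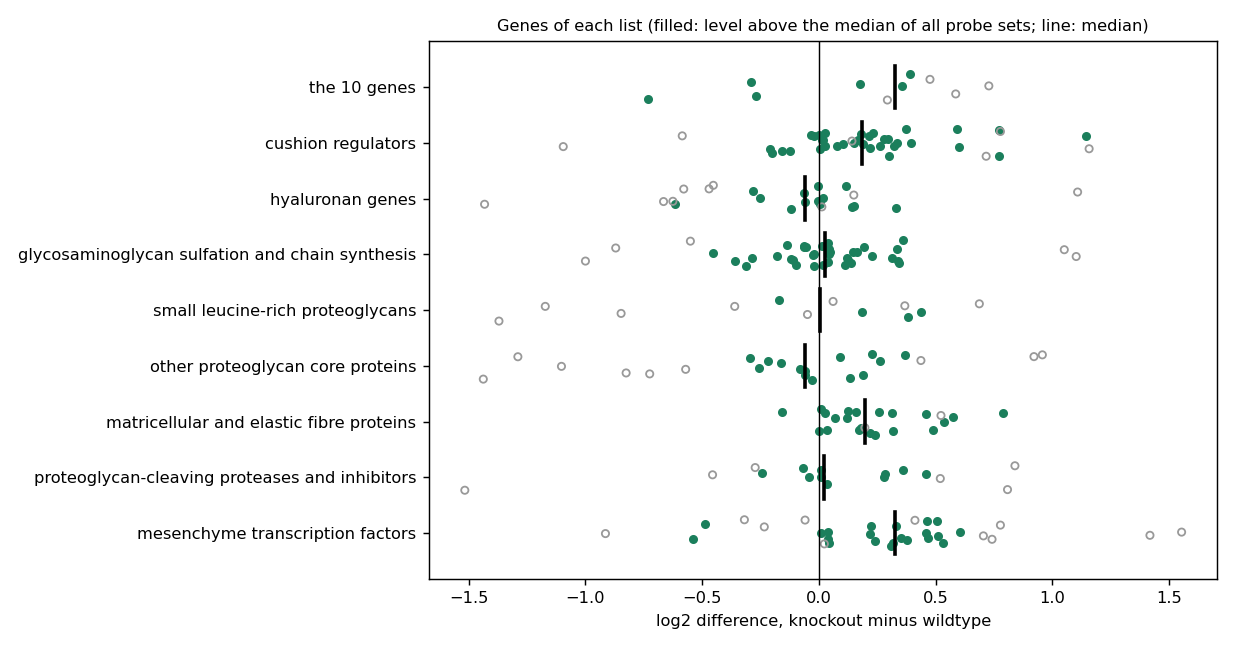
Log2 difference, knockout minus wildtype, for each gene at its brightest probe set, for the 10 genes and 8 lists of related genes, with the median as a line. Filled points lie above the median level of all probe sets. The medians run from -0.06 to 0.32, and 22 of 23 matricellular and elastic fibre genes lie right of 0.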

How the data were processed

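Per the labels' protocols, total RNA of single hearts was labelled in 1 cycle with biotin. Per the submitters' processing notes, GCOS and RMA were used; their versions and roles are unknown here. The values the authors deposited are intensities on a linear scale. Array medians lay between 22.5 and 26.7, which full quantile normalization would have made equal. Log2 was taken with no further normalization. In the platform annotation 34945 probe sets had 1 gene, 932 had several and 9160 had none, and 64 control probe sets were left out. For genes with several probe sets the one of highest mean stood for the gene. Suffixes _s and _x mark probe sets that can read several transcripts or genes.

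Tests used R 4.3.3 and limma 3.58.1, with lmFit and eBayes with trend and robust estimation on all 45037 probe sets, group as the only term. The trend was chosen because spread falls with level. The fit was tested on simulated data, with noise drawn separately for each probe set and array. That simulation held no shift shared by the genes of an array, so it does not speak to such shifts. Named were the 10 genes with all probe sets, Sp3, the 3 genes of smallest p per list, the brightest and dimmest markers, and the 5 genes most alike. Genes, lists and settings were chosen with earlier results of these data known. Marker lists were liver, erythroid, heart muscle, hepatic stellate and liver mesothelium, cartilage, endothelium and endocardium, general mesenchyme, epicardium and embryo sex. Promoter windows are RefSeq's. No array held the values of another beyond 1 probe set per pair.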

Additional observations from a re-analysis of the deposited data

How the results depend on the processing

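Of the 32 probe sets of the cushion genes 0 passed in the reported setting or in 14 others, in 1 of which, that above the median level, only 8 were tested. Leaving out knockout c or wildtype b for the marker lists was chosen after seeing the data. The count over all probe sets was 14, and 0 without trend and robust estimation, 25 with array weights, 258 with the replicate letter as a block, and 3 to 24 when 1 array was left out. The labels do not say whether the same letter marks a pair, and the reported fit took no pairing. The same-letter correlations of deviations were 0.0095, 0.3081 and 0.4361 for a, b and c. Those between different letters ran from -0.3834 to 0.1284. Knockout b and c went best with their own letter, and knockout a with wildtype b. Under the block 2 list genes passed instead of 0, Sox11 and Lyve1. Groups did not overlap at 1 member probe set above the median level, instead of 2, and at 5 to 9 with an array left out, beside 21.2% to 28.2% of all. The members' median of 0.32 was -0.0454 above the median level and 0.0674 (without wildtype b) to 0.4227 with an array left out. List medians that changed sign were sulfation, -0.0179 (quantile) and -0.0492 (median centring), small leucine-rich proteoglycans, -0.1446, -0.0706 and -0.0006 (Xist covariate), and proteases, -0.0544 (median centring).

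With an array left out, the medians ran from -0.1115 to 0.0278 for hyaluronan genes, -0.0190 to 0.1001 for sulfation, -0.1854 to 0.1665 for small leucine-rich proteoglycans, -0.1268 to 0.0141 for other proteoglycans, -0.0086 to 0.1565 for proteases and -0.0483 to 0.0024 for all genes. The differences that changed sign ran from -0.4937 to 0.0721 and -0.691 to 0.9638 for the 2 dimmer Papss2 probe sets, from -0.1528 to 0.6844, -0.1816 to 0.5494, -0.0008 to 0.5109 and -0.6291 to 1.408 for 4 of Vcan, from -1.1873 to 0.6116 for 1 of Sox9, and from -0.0388 to 0.7088 and -1.0104 to 0.8077 for 2 of Prrx1. With 16 units added 1 of Papss2 was -0.0198 and 1 of Prrx1 0.0532, and with array weights that of Papss2 was -0.0123. The causes were not tested. Dim probe sets vary more between arrays than bright ones, so their differences are the least certain.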
